A study of Mus musculus with 6 samples.

Results

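Genes that mark the glutamatergic projection neurons of the cerebral cortex were followed in striatal RNA from 6 mice. The genes were chosen by name, from a list of 9 cortical markers, with earlier results of these arrays known. Membership required a probe set annotated to exactly 1 gene symbol, and 6 of the 9 genes met this: Tbr1, Cux2, Neurod2, Neurod6, Mef2c and Nptx1, with 9 probe sets among the 12422 measured. Slc17a7, Nrn1 and Emx1 were not measured. The samples were 3 Hdh4/Q80 mice and 3 wild-type littermates, and the labels give all 6 as female, C57BL/6 and 12 months old. The labels call the Hdh4/Q80 animals transgenic; they carry an expanded glutamine-coding repeat in the mouse huntingtin gene, and no label states their zygosity. Every mouse gave 1 array, with 1 log2 expression value per probe set, and no technical repeat. Replicate numbers are those of the labels, 4 to 6 for wild type and 7 to 9 for Hdh4/Q80.

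The cortex lies directly over the striatum, with the white matter of the corpus callosum between them. Excitatory projection neurons of the cortex use glutamate and arise from a lineage that switches on Emx1, Neurod2, Neurod6 and Tbr1. The projection neurons of the striatum arise from a separate lineage, use GABA and are recognised by genes such as Penk, Tac1 and Ebf1. In bulk RNA, fewer cells of a type and less RNA per cell cannot be told apart.

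The start-site windows of the lineage transcription factors are shown here because their mRNAs are the core of the marker set. They come from RefSeq (GRCm38.p6), run 5′ to 3′ on the gene's strand from 250 bases before to 50 after the annotated start, and cover 7 of the 9 listed genes in 10 windows. Letters searched on both strands were CAGATG, an E-box that NEUROD proteins bind, the E-box CAGCTG and the T-box core AGGTGT, which do not overlap in these windows. Capitals mark matches.
Tbr1, chr2:61804203-61804502, plus strand: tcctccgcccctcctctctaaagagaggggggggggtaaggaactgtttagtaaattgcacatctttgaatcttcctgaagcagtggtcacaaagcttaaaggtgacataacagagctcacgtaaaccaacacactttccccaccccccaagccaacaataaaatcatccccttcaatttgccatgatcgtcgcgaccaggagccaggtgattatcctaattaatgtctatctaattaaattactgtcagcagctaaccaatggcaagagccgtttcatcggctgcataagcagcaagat
Neurod2, chr11:98329596-98329895, minus strand: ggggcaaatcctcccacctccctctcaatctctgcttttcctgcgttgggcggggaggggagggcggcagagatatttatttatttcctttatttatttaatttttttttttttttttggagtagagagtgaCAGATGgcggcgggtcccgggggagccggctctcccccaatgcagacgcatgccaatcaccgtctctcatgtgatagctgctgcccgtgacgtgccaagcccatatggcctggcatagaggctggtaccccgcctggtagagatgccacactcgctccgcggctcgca
Neurod6, chr6:55681214-55681513, minus strand: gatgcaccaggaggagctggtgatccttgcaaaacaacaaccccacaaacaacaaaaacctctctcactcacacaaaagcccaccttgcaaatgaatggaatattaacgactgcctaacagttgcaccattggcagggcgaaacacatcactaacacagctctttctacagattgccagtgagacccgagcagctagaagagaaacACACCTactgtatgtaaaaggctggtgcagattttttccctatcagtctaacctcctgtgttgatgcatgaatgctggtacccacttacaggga
The Neurod2 window held 1 CAGATG, which 17.2% of all 32851 RefSeq windows of this length hold. The Neurod6 window held 1 reverse match to the T-box core, which 13.7% hold. None of the 3 motifs was in the Tbr1 window. Elsewhere in the set, 1 of 2 Cux2 windows and 1 of 3 Mef2c windows held CAGATG, and another Mef2c window held the T-box core. These matches describe letters only, and the arrays did not measure binding.

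Tbr1, the T-box transcription factor of deep-layer cortical neurons, varied widely from mouse to mouse. Wild-type mice 4, 5 and 6 read 6.83, 6.10 and 8.04 on the log2 scale, and Hdh4/Q80 mice 7, 8 and 9 read 6.96, 5.95 and 6.92. Wild-type mouse 6 was 4.26-fold above Hdh4/Q80 mouse 8, the lowest. The middle animals, wild-type 4 and Hdh4/Q80 7 and 9, lay between 6.83 and 6.96, and wild-type 5 sat beside Hdh4/Q80 8 at the bottom. The lowest animals came from both genotypes, the single high animal was wild type, and the groups overlapped. Over the 6 arrays the SD of Tbr1 was 0.747, the 6th highest of 12422 probe sets, whose median SD was 0.102.

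Nptx1, a secreted neuronal pentraxin that gathers AMPA-type glutamate receptors at synapses, had the same order of mice as Tbr1 over a smaller span. It read 7.95, 7.85 and 8.34 in wild-type mice 4, 5 and 6, and 8.01, 7.67 and 7.99 in Hdh4/Q80 mice 7, 8 and 9. The highest array was 1.58-fold above the lowest. Its Pearson correlation with Tbr1 over the 6 arrays was r = 0.98 and its Spearman rho was 1. A rise of 1 log2 unit in Tbr1 went with 0.28 log2 units in Nptx1 by least squares. These correlations are descriptions without a test, because the list was drawn up with them known and the arrays share 1 normalization.

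Neurod2, a basic helix-loop-helix factor kept on in mature pyramidal neurons, read 8.43, 8.50 and 8.79 in wild-type mice 4, 5 and 6. In Hdh4/Q80 mice 7, 8 and 9 it read 8.59, 8.48 and 8.60. Only wild-type 6 stood clear of the others, and r with Tbr1 was 0.83 (rho 0.77), with 0.45 when that mouse was left out. Neurod6, its close relative, had a dim probe set that lay below the lower quartile of every array (5.79 to 5.86). It read 4.40, 4.31 and 4.62 in wild type and 4.61, 4.53 and 4.55 in Hdh4/Q80 mice, with r = 0.60 (rho 0.83). RMA compresses dim probe sets, so this narrow range is a weak limit. Taken as deviations from each group's mean, the Neurod6 correlation with Tbr1 was 0.93. Over the arrays themselves it was 0.45 without wild-type 6, 0.44 without wild-type 5 and 0.80 without Hdh4/Q80 8.

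Cux2, a homeobox factor of upper-layer cortical neurons, followed Tbr1 least of the 6 genes. It read 6.84, 6.88 and 7.10 in wild-type mice 4, 5 and 6 and 7.03, 6.91 and 6.62 in Hdh4/Q80 mice 7, 8 and 9. Mouse 9, among the middle animals for Tbr1, was the lowest for Cux2. The correlation with Tbr1 was r = 0.39 (rho 0.43). Without wild-type mouse 6 it was -0.22, and without Hdh4/Q80 mouse 9 it was 0.77.

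Mef2c, a MADS-box factor of cortical neurons that microglia and vessel cells also use, was read by 4 probe sets. The brightest gave 8.16, 7.93 and 8.26 in wild-type mice 4, 5 and 6 and 8.07, 7.98 and 8.16 in Hdh4/Q80 mice 7, 8 and 9, with r = 0.92 (rho 0.77) with Tbr1. The second gave 7.74, 7.63 and 8.04 in wild type and 7.80, 7.32 and 7.88 in the mutants, with r = 0.91. The others had r = 0.72 and 0.74, which became 0.57 and 0.32 without wild-type 6. All 4 were highest in wild-type 6, but they disagreed on the lowest mouse, which was Hdh4/Q80 8 for the middle probe sets and wild-type 5 for the brightest and the dimmest.

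**Figure D1:**
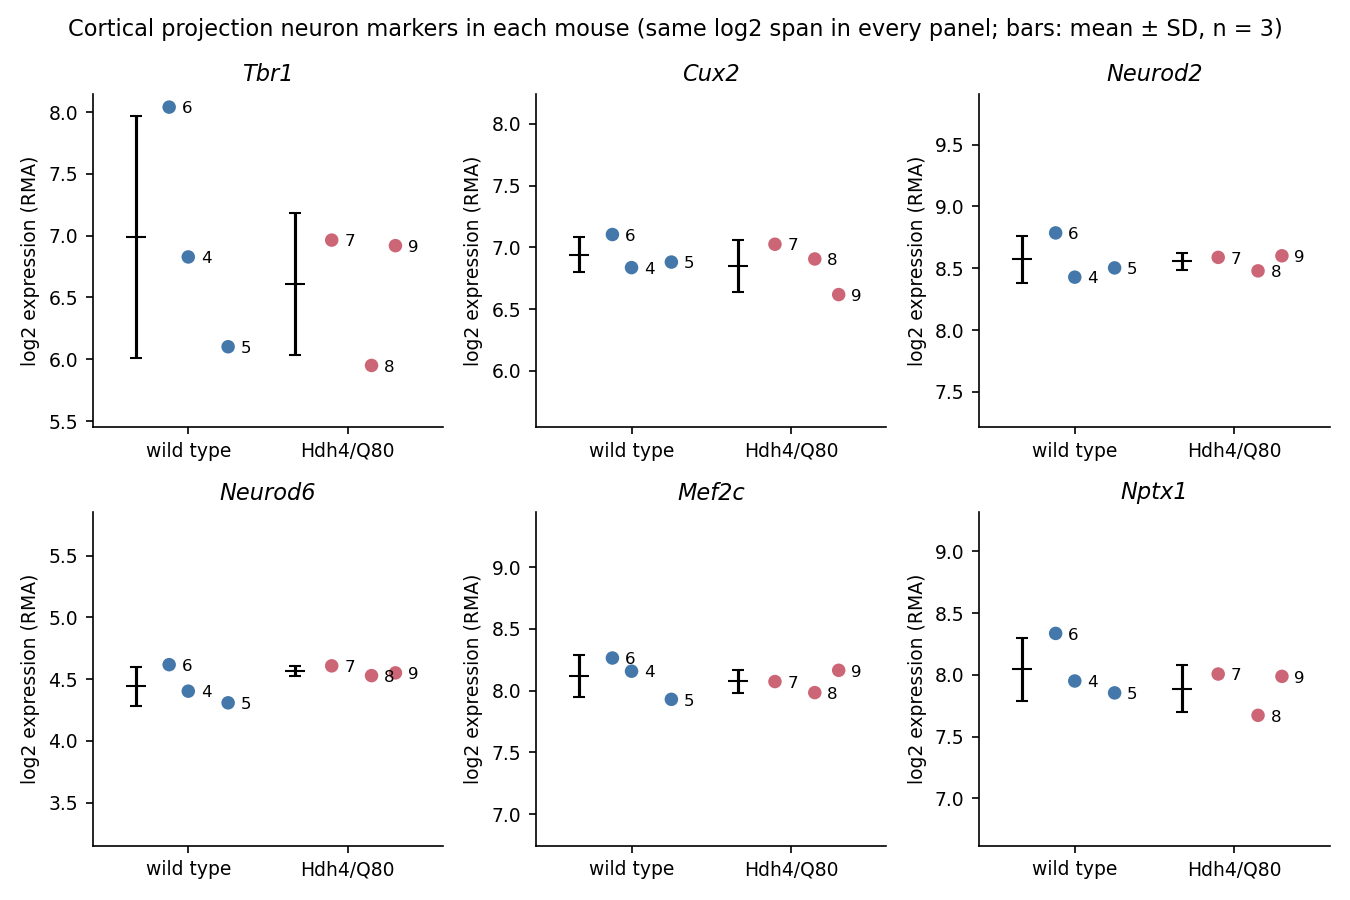
Log2 expression of the brightest probe set of each of the 6 genes, 1 point per mouse labelled with its replicate number, wild type in blue and Hdh4/Q80 in red; horizontal marks and bars are the mean ± SD of 3 mice, and all panels span the same log2 range. Wild-type mouse 6 is the top point in every panel, and Tbr1, from 5.95 to 8.04, spreads most.

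All 9 probe sets of the 6 genes were highest in wild-type mouse 6, where 14.5% of the 12422 probe sets were highest. The list was drawn up with correlations with Tbr1 known, and Tbr1 peaked in that mouse, so nothing is read from this share. Hdh4/Q80 mouse 8 was lowest for 4 of the 9, where 33.7% of all probe sets were lowest in that array. The 15 pairs among the 6 genes all had r above 0, with a median of 0.60, from 0.10 (Mef2c with Cux2) to 0.98 (Nptx1 with Tbr1). An r of at least 0.9 with Tbr1 was reached by 2 of the other 5 genes, Nptx1 and Mef2c. Over all other probe sets that share was 0.894%, but the list was chosen with these correlations in view, so nothing is read from the contrast. The median r of the 5 genes was 0.83 over 6 arrays, 0.92 as deviations from the group means, 0.45 without wild-type 6 alone, and 0.86 without both wild-type 6 and Hdh4/Q80 8, the arrays farthest from the Tbr1 median. Leaving out both arrays lowered Neurod2 to 0.35 and Cux2 to -0.12, while Nptx1 kept 0.98 and the brightest Mef2c probe set 0.88. The other Mef2c probe sets, from bright to dim, then had r = 0.89, -0.23 and 0.96, so they disagreed in sign. On those 4 mice r rests mainly on wild-type 5, the only low animal left.

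The difference in Tbr1 between the genotypes did not exceed the spread between mice. The Tbr1 mean was 6.99 ± 0.98 in wild type and 6.61 ± 0.573 in Hdh4/Q80 (mean ± SD, n = 3 mice each). Mutant minus wild type was -0.38, 95% interval -1.32 to 0.57 (adjusted p = 0.889, limma). That interval reaches from 2.50-fold lower to 1.48-fold higher, so this gene is poorly bounded. Without wild-type mouse 6 the difference was 0.15, and without wild-type mouse 5 it was -0.82. Nptx1 differed by -0.16 (-0.45 to 0.14), from 8.05 ± 0.255 to 7.89 ± 0.188, which became -0.013 without wild-type 6. Cux2 differed by -0.09 (-0.34 to 0.16), and by 0.025 without Hdh4/Q80 9. Neurod2 had a difference of -0.02 (-0.23 to 0.20), which turned to 0.011 under quantile or cyclic loess scaling and ran from -0.09 to 0.09 with 1 mouse left out. The brightest Mef2c probe set differed by -0.04 (-0.26 to 0.17), and the 4 probe sets ran from -0.22 to 0.05. Neurod6 differed by 0.12 (-0.08 to 0.31).

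None of the 6 genes passed limma's test, with adjusted p-values between 0.857 and 0.98. The background was the same: 0 of 12422 probe sets were called, or 0.0%. At an unadjusted p under 0.05 limma had 0 of the 9 probe sets and 634 of all, or 5.1%. For 0 of the 9 did the 3 mutants lie wholly above or below the 3 wild types, as they did for 11.7% of all probe sets. Htt, the gene that carries the repeat, differed by -0.03 (-0.19 to 0.13) on its brightest probe set. This value does not check the genotype, since no source used here states where along the gene that probe set lies.

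**Figure D2:**
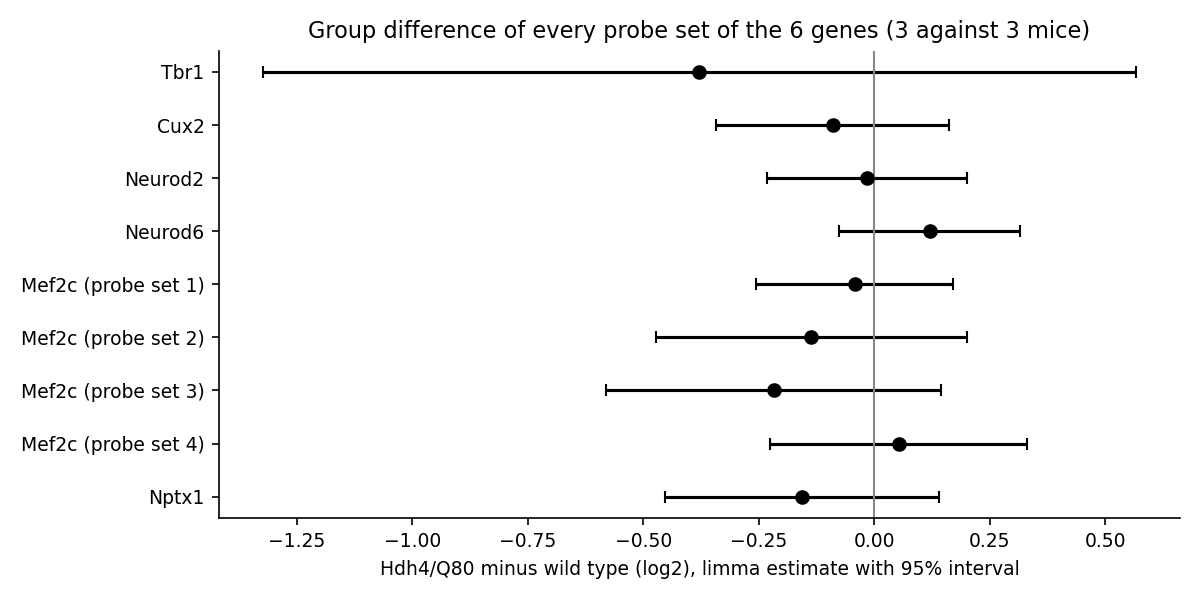
Difference between the means of 3 Hdh4/Q80 and 3 wild-type mice (log2, horizontal axis) for each of the 9 probe sets, with limma's 95% interval as the bar and Mef2c probe sets numbered from the brightest. Every interval crosses 0, and the interval of Tbr1 (-1.32 to 0.57) is the widest of the 9.

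Other cortical glutamatergic markers were read from a separate list of 46 genes, 26 of which were measured. This list too was drawn up with earlier results of these data known. Cck, Fezf2, Ccn2 and Ccn3 are named because their r with Tbr1 was the highest of the 26, so nothing is read from those values. Cck, the cholecystokinin precursor made by many cortical neurons, read 8.09, 7.31 and 9.38 in wild-type mice 4, 5 and 6 and 8.53, 7.07 and 8.52 in Hdh4/Q80 mice 7, 8 and 9. Its order of mice was that of Tbr1, with r = 0.98 (rho 1), and its highest array was 4.94-fold above its lowest. Fezf2, a zinc-finger factor of subcortically projecting deep-layer neurons, spanned less, from 6.58 in Hdh4/Q80 8 to 6.87 in wild-type 6, with r = 0.96. Ccn2, a marker of layer 6b, and its relative Ccn3, which both encode secreted matricellular proteins, had r = 0.90 and 0.94. Ccn2 read 5.20, 5.15 and 6.20 in wild type and 5.88, 4.96 and 5.40 in Hdh4/Q80 mice, a 2.37-fold range.

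Across the 26 genes, 20 had r above 0 with Tbr1 and 4 reached 0.9, with a median of 0.43. Over all probe sets but Tbr1, 52.3% were above 0 and the median was 0.05. Over all genes but Tbr1, each on its brightest probe set as in the list, these were 55.1% and 0.10. Of the 26, 11 were highest in wild-type 6 (14.5% of all probe sets) and 13 were lowest in Hdh4/Q80 8 (33.7% of probe sets, 36.0% of genes). This was not particular to cortical markers. Genes highest in wild-type 6 ran from 0 of 11 endothelial and mural markers to 7 of 10 activity-induced genes. Microglia markers had 6 of 10 highest there and 7 of 10 lowest in Hdh4/Q80 8, and oligodendrocyte markers 5 of 9 and 2 of 9. The cortical list of 26 was not uniform. Crym, a thyroid hormone-binding protein of cortex and striatum alike, was lowest in wild-type 6 (7.55, against 7.82 to 8.08 in the other mice) and had r = -0.55. Mef2a had r = -0.23, and Camk2a, a synaptic kinase subunit that striatal neurons also express, had r = 0.41, being second highest in wild-type 5, where Tbr1 was low. These 3 values rested on wild-type 6: without it r was 0.52 for Crym, 0.57 for Mef2a and -0.14 for Camk2a. The median of the 26 genes was then 0.60, and 0.36 without Hdh4/Q80 8. Between genotypes the list had 17 of 26 differences below 0, a median of -0.04 and 0 calls in limma's test (2 at an unadjusted p under 0.05). Over all probe sets 51.1% of differences were below 0, and over all genes but Tbr1 53.3%. Without Hdh4/Q80 8 the count was 13 of 26 and without wild-type 6 it was 12 of 26.

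**Figure D3:**
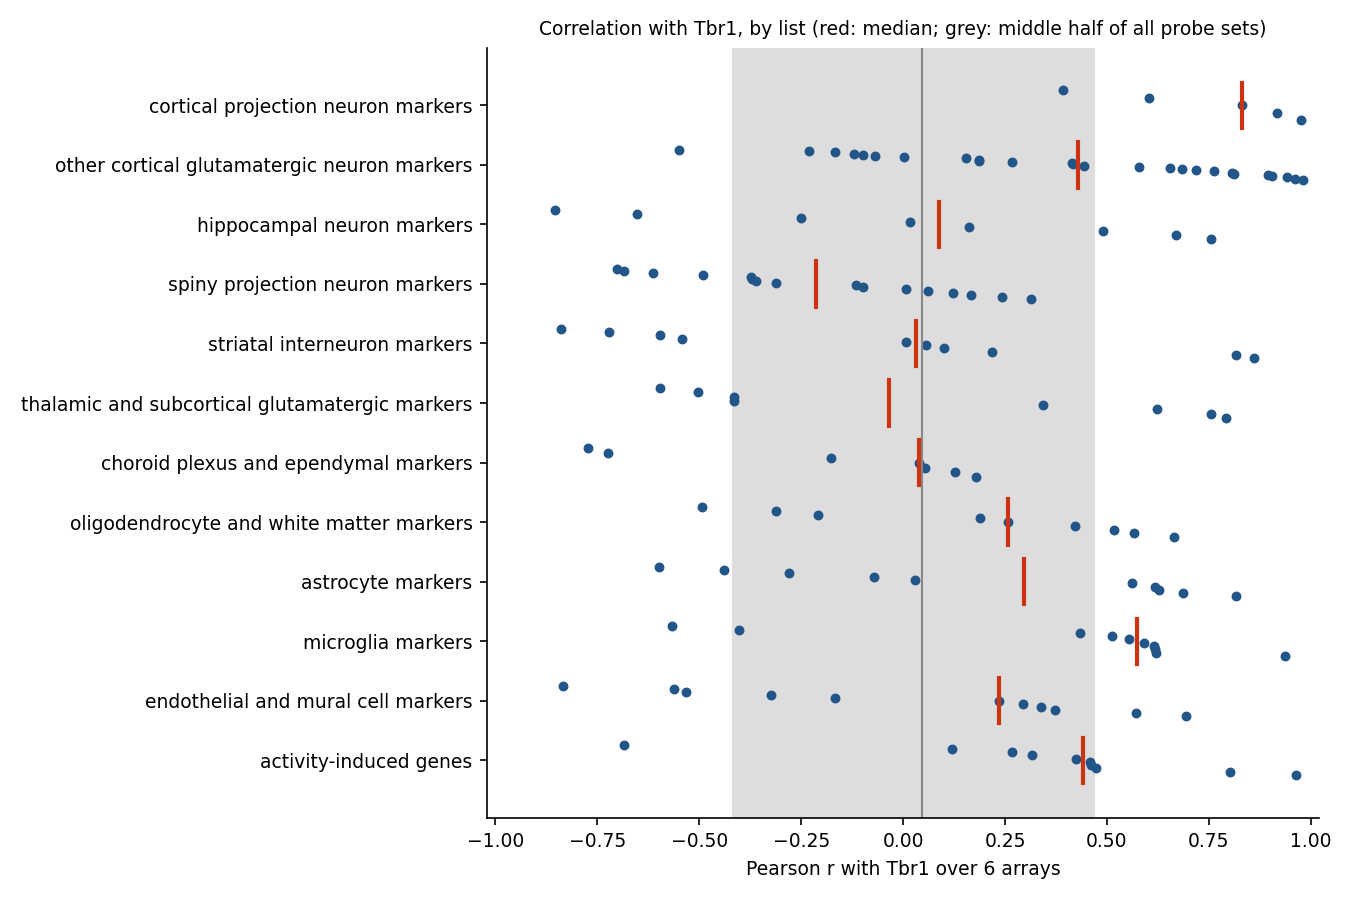
Pearson r with Tbr1 over 6 arrays (horizontal axis) for the measured genes of each marker list, 1 point per gene on its brightest probe set; red lines are list medians, and the grey band and line are the middle 50% and the median (0.05) of all other probe sets. The cortical projection neuron markers (median 0.83, chosen with these values known) lie farthest to the right. The microglia markers (0.57), the activity-induced genes (0.44) and the other cortical markers (0.43) come next. The spiny projection neuron markers (-0.21) lie to the left, but their median is 0.21 without wild-type 6.

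The genes most like Tbr1 were taken as those with the highest r over the 6 arrays among 660 non-member genes that spanned at least 0.5 log2. Stmn1, the microtubule-destabilising protein stathmin, came first (r = 0.99), followed by Stx1a, a syntaxin of the synaptic release machinery (0.98), Cck (0.98), Bdnf (0.96) and Spsb1 (0.96). Serpini1, the protease inhibitor neuroserpin (0.95), Olfm1 (0.94), Ccn3 (0.94), the ephrin receptor Epha5 (0.93) and Hivep1 (0.93) completed the 10. Stmn1 read 10.82, 10.56 and 11.26 in wild-type mice 4, 5 and 6 and 10.79, 10.45 and 10.89 in Hdh4/Q80 mice 7, 8 and 9. A second, dimmer Stmn1 probe set did not share the pattern (r = -0.21), nor did the second one of Epha5 (-0.35), whereas that of Spsb1 had r = 0.87.

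Bdnf, a neurotrophin that cortical neurons make and carry to the striatum, also spanned widely, with its highest array 2.76-fold above its lowest. Bdnf read 6.05, 5.45 and 6.92 in wild-type mice 4, 5 and 6 and 6.22, 5.57 and 6.46 in Hdh4/Q80 mice 7, 8 and 9. The same low animals, wild-type 5 and Hdh4/Q80 8, stood at the bottom and wild-type 6 at the top. The Bdnf difference between genotypes was -0.06 with a 95% interval of -0.79 to 0.67 (adjusted p = 0.979, limma). All 10 genes were highest in wild-type 6, and their r without that mouse ran from 0.81 to 0.99. Leaving out Hdh4/Q80 8 gave r between 0.93 and 0.996. The 10 genes were picked by r over the same 6 arrays, so these values are not independent of the choice.

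**Figure D4:**
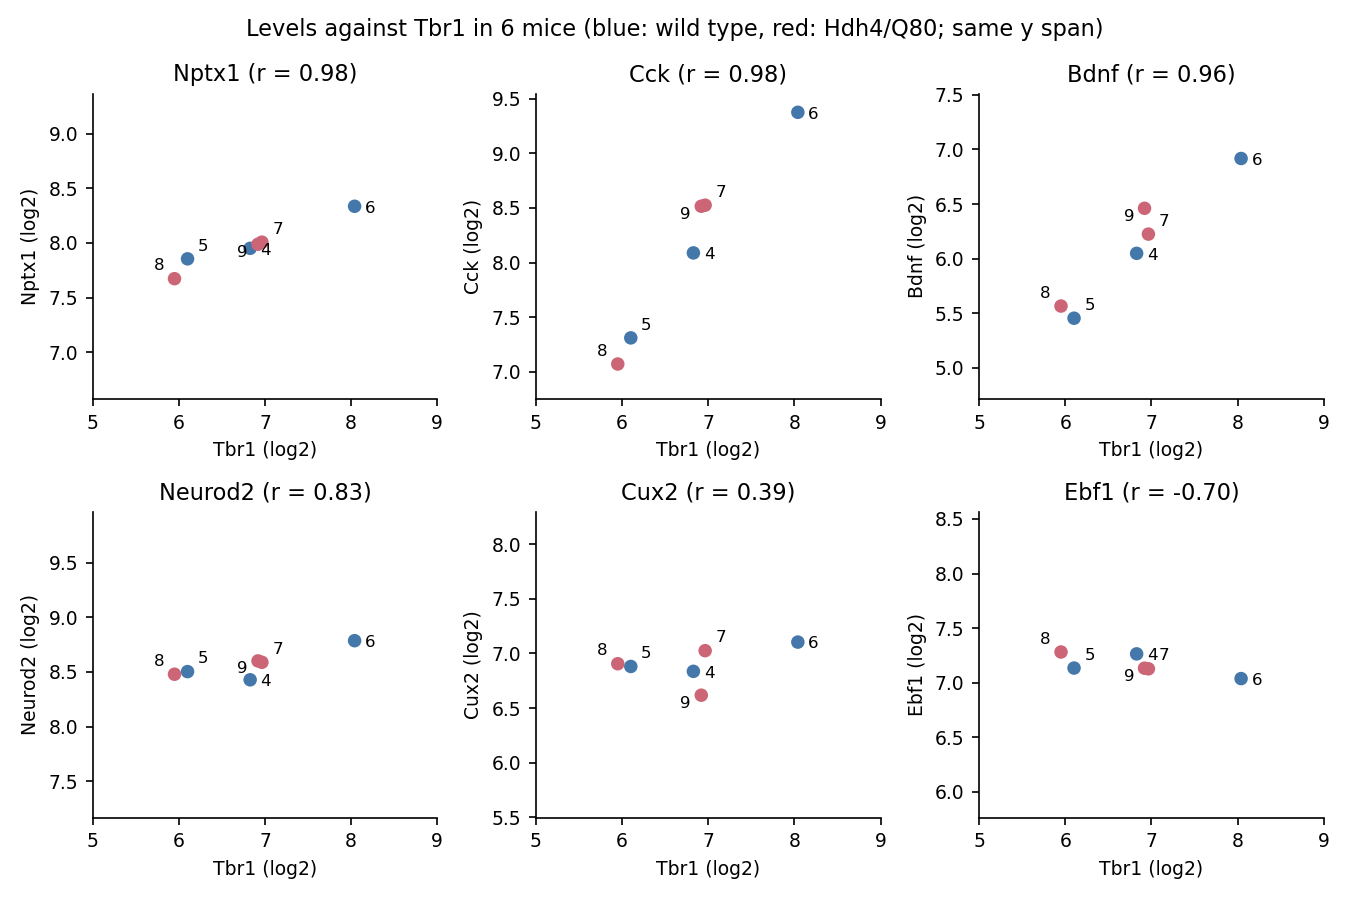
Log2 expression of Nptx1, Cck, Bdnf, Neurod2, Cux2 and Ebf1 (vertical axes, equal spans) against Tbr1 (horizontal axis), 1 point per mouse labelled with its replicate number, wild type in blue and Hdh4/Q80 in red. Nptx1, Cck and Bdnf climb with Tbr1 from wild-type 5 and Hdh4/Q80 8 to wild-type 6, and Cux2 does so less. Ebf1 has r = -0.70, the lowest of the 16 measured spiny projection neuron genes, of which 6 have r above 0. Without wild-type 6 the r of Ebf1 is -0.37.

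Spiny projection neuron genes, which define the striatum, did not share the high values of wild-type mouse 6. Of 32 listed genes 16 were measured. Wild-type 6 was the highest array for 0 of the 16 (14.5% of all probe sets) and above both other wild types for 0 of the 16 (29.4% of all). It was the lowest array for 5. Penk, the enkephalin precursor, read 13.14, 13.00 and 12.92 in wild-type mice 4, 5 and 6 and 12.94, 13.14 and 13.03 in Hdh4/Q80 mice 7, 8 and 9, with r = -0.61 with Tbr1. The Penk probe set is among the brightest, where array values can be compressed, and spanned only 0.22 log2. Ebf1, a factor of direct-pathway neurons, read 7.04 in wild-type 6 and 7.13 to 7.28 in the other 5 mice (r = -0.70). Gad1, which makes GABA, was likewise lowest in wild-type 6 (10.33) and highest in Hdh4/Q80 8 (10.80), with r = -0.69. The genotypes did not overlap for Gad1, as for 11.7% of all probe sets. Mutants were higher by 0.26 (95% interval 0.08 to 0.44, adjusted p = 0.857, limma). As deviations from the group means the Gad1 correlation was -0.91. Ebf1, Gad1 and Penk had the lowest r of the list, in which 10 of the 16 genes were below 0 and 6 above. The positive end held Six3 (r = 0.31) and Ptpn5 (0.24), both highest in wild-type 4. Without wild-type 6 these r were -0.33 for Penk, -0.37 for Ebf1, -0.20 for Gad1, 0.78 for Six3 and 0.59 for Ptpn5, and without Hdh4/Q80 8 those of Six3 and Ptpn5 were -0.01 and -0.17. The median r of the 16 genes was -0.21, but 0.21 without wild-type 6 and -0.42 without Hdh4/Q80 8, so its sign rested on wild-type 6.

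The mean level of each list per mouse, as the average deviation of its genes from their 6-array means, put these patterns on 1 scale. The cortical projection neuron markers stood at 0.39 log2 units in wild-type 6, at -0.21 in wild-type 5, at -0.22 in Hdh4/Q80 8 and between -0.04 and 0.07 in the other 3 mice. Their range was 0.60, and 0.33 when Tbr1 was left out. The other cortical markers ran from -0.19 (Hdh4/Q80 8) to 0.15 (wild-type 6). Spiny projection neuron genes ran from -0.10 in wild-type 6 to 0.11 in wild-type 4. Hippocampal markers, 8 of 12 measured, spanned 0.08, and the 8 thalamic and other subcortical glutamatergic markers spanned 0.10.

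Some lists of other cells and tissues moved with the cortical markers in part, and their part in the result was not tested. The 10 activity-induced genes, among them Bdnf, were highest in wild-type 6 (0.32) and lowest in Hdh4/Q80 8 (-0.27), with a median r of 0.44, which was 0.03 without wild-type 6 and 0.17 without Hdh4/Q80 8. In Hdh4/Q80 9, however, they were low (-0.22), where Tbr1 was intermediate. The 10 microglia markers had a median r of 0.57 with Tbr1, with -0.18 in Hdh4/Q80 8 and 0.11 in wild-type 6, and their median r was 0.40 without wild-type 6 and 0.23 without Hdh4/Q80 8. Choroid plexus and ependymal markers ranged over 0.92 log2 units in another order, with Hdh4/Q80 9 and 8 highest (0.57 and 0.36), wild-type 6 next (0.12) and the other 3 mice near -0.35. Ttr, their most abundant product, had r = 0.18 with Tbr1, and -0.07 without wild-type 6. Oligodendrocyte and white matter markers spanned 0.19, being highest in wild-type 6 (0.10) and lowest in Hdh4/Q80 9 (-0.10), with a median r of 0.26 that turned to -0.48 without wild-type 6. The 10 astrocyte markers spanned 0.12, with a median r of 0.30 (0.16 without wild-type 6, 0.19 without Hdh4/Q80 8). The 11 endothelial and mural cell markers spanned 0.09, with a median r of 0.24 (0.15 and -0.12).

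**Figure D5:**
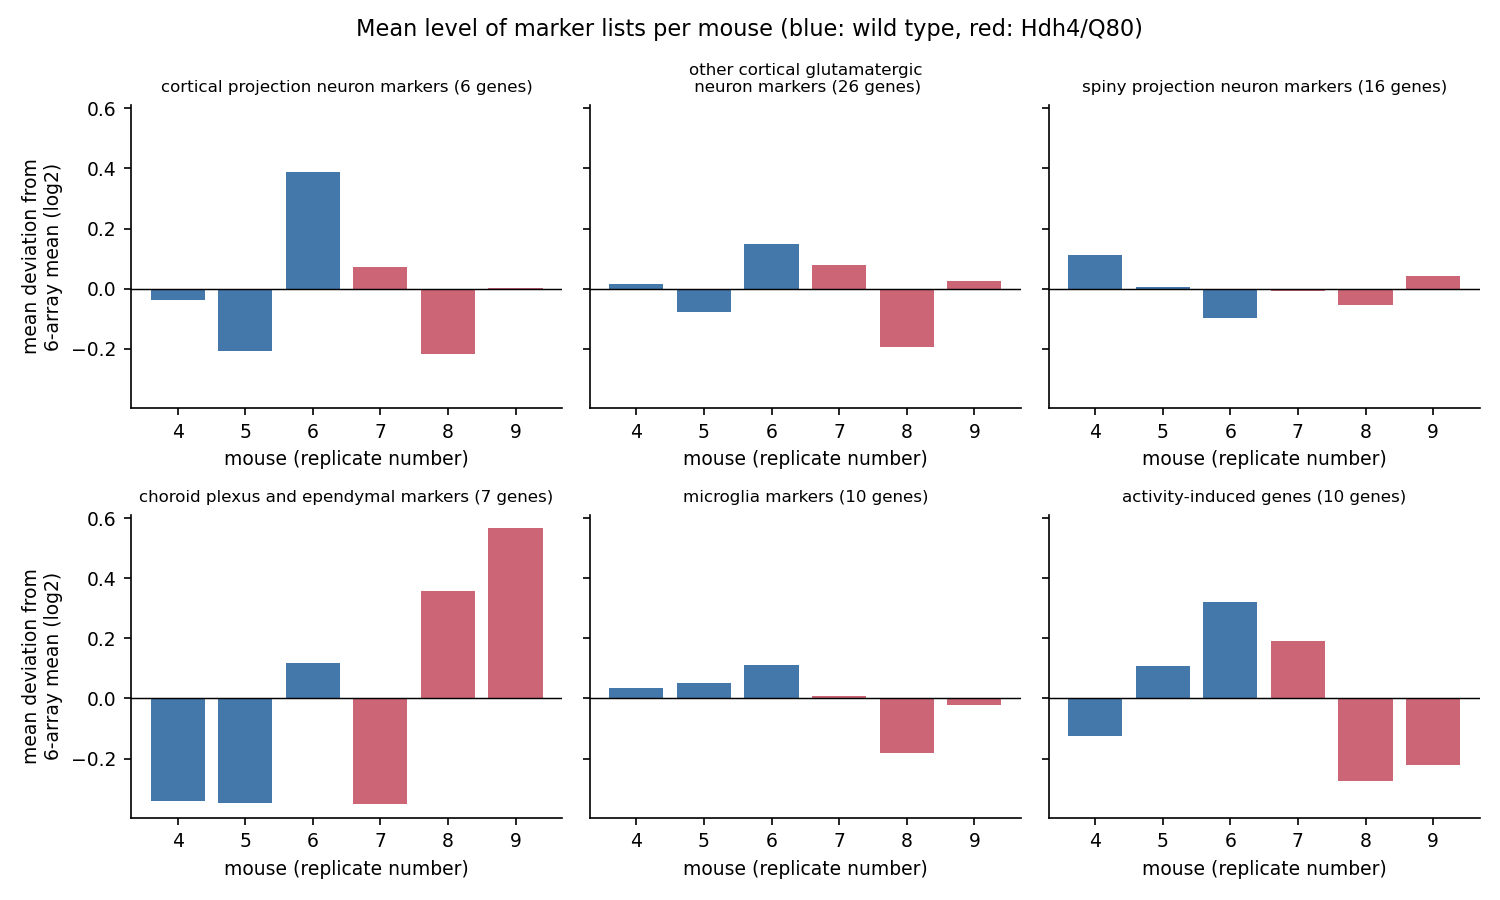
Mean deviation from the 6-array mean (log2, vertical axis) of 6 gene lists in each mouse, with wild-type bars in blue and Hdh4/Q80 bars in red. Cortical projection neuron markers peak in wild-type 6 (0.39), spiny projection neuron markers are lowest there (-0.10), and choroid plexus markers peak in Hdh4/Q80 9 (0.57).

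Array medians lay between 7.10 and 7.13, while Tbr1 ran from 5.95 to 8.04. Hdh4/Q80 8 stood apart, with a mean correlation of 0.992 with the other arrays (0.995 to 0.997 for the other 5) and the lowest value for 33.7% of probe sets and the highest for 28.1%. Without that array, r with Tbr1 on the brightest probe sets was 0.98 for Nptx1 and 0.90 for Mef2c. It was 0.83 for Neurod2, 0.80 for Neurod6 and 0.49 for Cux2. The other Mef2c probe sets, from bright to dim, had 0.96, 0.57 and 0.98. The labels give no batch or date.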

How the data were processed

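The authors deposited log2 values from RMA, run in affy per the submitters' processing notes; no source used here gives versions or which arrays were processed jointly. RMA equalises array distributions and compresses dim probe sets, and array values of very bright ones can be compressed as well. Of 12488 probe sets, 66 controls were left out. The platform annotation gave 10833 of the rest 1 gene symbol, 396 several and 1193 none; 8237 of 8251 genes matched RefSeq by identifier. The brightest probe set stood for a gene. Genotypes were compared with limma 3.58.1 in R 4.3.3 (lmFit, eBayes, Benjamini-Hochberg over 12422 probe sets, threshold 0.05), tested on simulated data. Each array was taken as 1 of the 3 mice per group in the design text, and the number of arrays limits the precision. Named were all member probe sets, the genes of highest and lowest r with Tbr1 in each of 11 other lists (those that carry the account), the 10 highest and 5 lowest of all genes, and Htt. Camk2a, Penk and Vip were chosen after their values were seen. Members and lists were chosen with earlier results of these data known. Alternatives were a filter on the dimmest 40%, median centring, quantile and cyclic loess normalization, trended robust moderation, array weights, probe set means and each mouse left out.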

Additional observations from a re-analysis of the deposited data

How the results depend on the processing

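In the 13 alternatives to the limma comparison 0 of the 6 genes were called; the filter on dim probe sets left 5, without Neurod6. With 1 mouse left out the differences ran from -0.82 to 0.15 for Tbr1, -0.18 to 0.025 for Cux2, -0.088 to 0.091 for Neurod2, -0.14 to 0.031 for Mef2c, 0.052 to 0.21 for Neurod6 and -0.25 to -0.013 for Nptx1. Signs also turned for Cux2 with array weights (0.018) and for Neurod2 after quantile (0.011) and cyclic loess normalization (0.011); the cause was not tested. The median r of the other members with Tbr1 ran from 0.45 to 0.94 with 1 mouse left out, the lowest without wild-type 6. The range of the member level became 0.33 without Tbr1, a choice made after seeing the data. The SD of Tbr1 ran from 0.486 to 0.835 with 1 mouse left out, also a later choice. No paired analysis was possible because the groups share no replicate number. Without background measures, absence of a transcript cannot be stated.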

Other observations

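Of the neuropeptide genes in the interneuron list, Npy and Sst were lowest in Hdh4/Q80 8 and highest in wild-type 6, as Tbr1 was, and Vip was not. Npy, the neuropeptide Y precursor, read 10.09, 9.87 and 10.16 in wild-type mice 4, 5 and 6 and 10.08, 9.74 and 10.14 in Hdh4/Q80 mice 7, 8 and 9 (r = 0.86 with Tbr1, 0.98 without wild-type 6). Sst, the somatostatin precursor, read 11.07, 10.95 and 11.18 in wild type and 11.05, 10.59 and 10.98 in Hdh4/Q80 mice (r = 0.82, 0.80 without wild-type 6). Vip, the vasoactive intestinal peptide precursor, on a dim probe set, was highest in Hdh4/Q80 8 (5.38, against 5.08 to 5.19 in the others), with r = -0.54, -0.87 without wild-type 6 and -0.07 without Hdh4/Q80 8. Npy and Sst are made by interneurons of striatum and of cortex. The interneuron transcription factors Lhx6 and Lhx8 lay at the other end of the list (r = -0.84 and -0.72), but without wild-type 6 these were -0.64 and 0.40. Lhx6 was nearly flat, spanning only 0.07 log2 over the 6 mice, and Lhx8 spanned 0.32. The 10 genes had a median r of 0.03, which was -0.17 without wild-type 6 and -0.08 without Hdh4/Q80 8.

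Single genes of other lists had high or low r as well, and those named were picked by r. Ctss, a microglial cathepsin, read 9.24, 9.22 and 9.45 in wild type and 9.30, 9.07 and 9.33 in Hdh4/Q80 mice (r = 0.94, and 0.95 without Hdh4/Q80 8). Pecam1, an endothelial adhesion molecule, had r = -0.83. The 5 genes of lowest r among those spanning at least 0.5 log2 were Acod1 (-0.88), Gtf3c4 (-0.87), Olfr92 (-0.86), Adam3 (-0.84) and Tectb (-0.83). Without wild-type 6 their r ran from -0.79 to -0.48. Acod1 and Tectb were dim, below the lower quartile of every array (5.79 to 5.86), and Olfr92 averaged 5.70. A second Acod1 probe set had r = -0.05, and a second one of Adam3 -0.65. All 5 genes, also picked by r over the same arrays, were highest in Hdh4/Q80 8 and lowest in wild-type 6 on their brightest probe sets.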
